A study of Mus musculus with 6 samples.

Results

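The chains of the extracellular matrix and of its cell surface receptors were examined in mTECs, tubular epithelial cells of the mouse kidney kept as a line. All genes whose symbol begins like a collagen chain (Col, a number, a and a number), a laminin chain (Lama, Lamb or Lamc) or an integrin subunit (Itga or Itgb) were taken, whatever their values. This gave 86 of the 22442 genes in the deposited table. Of these, 81 encode chains (44 collagen, 11 laminin and 26 integrin genes), and 5 match by name only. The latter are Col4a3bp, Itgb1bp1, Itgb1bp2 and Itgb3bp, named after partners of the chains, and Itgbl1, an integrin-like gene.

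Collagens are trimers of alpha chains. Collagen IV forms the network of basement membranes, onto which epithelial cells are placed through laminins, which are trimers of an alpha, a beta and a gamma chain, whereas fibrillar collagens and collagen VI are mainly made by stromal cells. Integrins are heterodimers of an alpha and a beta subunit that bind these proteins and link them to the cytoskeleton, and the alpha subunit largely sets the ligand. In the kidney tubule, basement membrane chains come from the epithelium and its neighbours, and their loss or excess accompanies tubular disease.

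Every one of the 6 cultures received lipopolysaccharide (LPS, from bacteria), 20 μg/ml over 24 h, and none was left without it. A control transfection preceded it in 3 cultures (labelled LPS), and transfection of an siRNA to silence Stat3 in the other 3 (labelled LPSKD). The study describes an immortalised line that also took shRNA in its silencing experiments, while the labels speak of magnetically sorted cells, and, although replicate experiments are stated for its cell work, nothing says whether the cultures behind the libraries of a group were set up independently, so that the p-values measure the spread between these samples, which may be technical. The comparison asks which matrix and adhesion transcripts differ when Stat3 is targeted in LPS-treated cells.

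Stat3 transcript levels overlapped between the groups. Stat3 was at 34.6, 31.4 and 35.2 FPKM in the libraries labelled LPS and at 30.8, 35.2 and 34.3 FPKM in those labelled LPSKD (log2 fold change -0.01, limma adjusted p = 0.944, exact permutation p = 0.7), so all directions below rest on the labels. The study reports knockdown of Stat3 in mTECs by real-time PCR and by western blot, and does not state whether the sequenced cultures were among those measured. Here FPKM is fragments scaled to the length of the gene and to the total of the library, and the libraries held 24084827 to 25422171 fragments. Epithelial markers summed to 3486 to 3540 FPKM in the LPS libraries and 3370 to 3419 FPKM in the LPSKD libraries, with 1 of 5 called (Krt18, lower). Among 7 tubule markers, Pax8 and Cdh16 were called higher in LPSKD, the sum going from 246 to 269.9 FPKM up to 311 to 323 FPKM, whereas Lrp2, Slc12a1 and Slc12a3 did not exceed 0.0348 FPKM and Aqp2 and Umod were listed at 0 in all libraries. The 5 endothelial markers summed to 2.67 to 5.21 FPKM and 3.12 to 5.32 FPKM, and the 4 platelet markers to 1.74 to 3.81 FPKM and 3.06 to 3.46 FPKM. Only 3 endothelial and 2 platelet markers were tested, with 0 called by limma in either list, also at an unadjusted p under 0.05 and by voom.

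Of the 81 chains, 40 reached a mean of 0.5 FPKM and were tested, namely 19 collagens, 7 laminins and 14 integrins. The tested set was led by the laminin receptor subunit Itga3 at a mean of 729 FPKM. Next was Itgb1, a beta subunit that laminin receptors share with other matrix receptors, at 609 FPKM. The laminin chains Lamb1 (247 FPKM) and Lama5 (234 FPKM) and the basement membrane collagen Col18a1 (163 FPKM) followed. Col8a1, Col16a1 and Itgb7 had the lowest means, and the tested chains had between 17 and 70301 fragments per library. Because FPKM is scaled to length, these levels can be set beside each other, and the plot of the levels of the tested chains shows that the most abundant chains were those of basement membranes and their receptors.

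**Figure D1:**
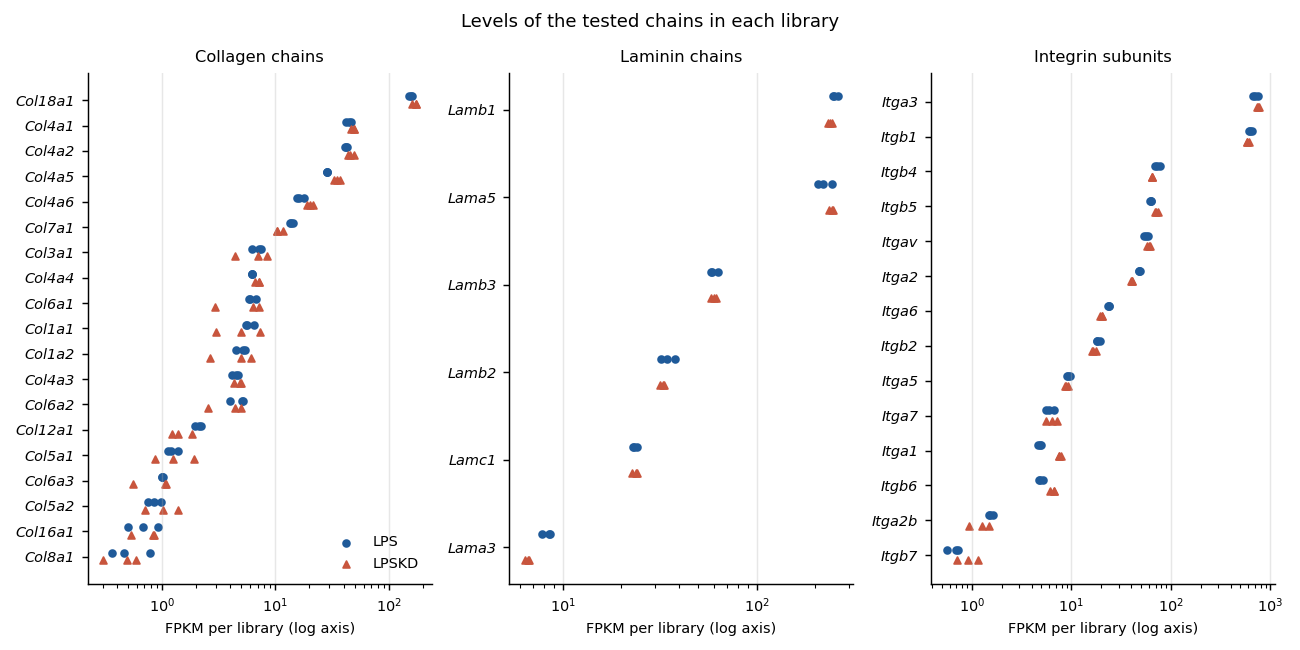
FPKM of 39 tested chains in each library on a log axis, with circles for the 3 libraries labelled LPS and triangles for the 3 labelled LPSKD, in panels for collagens, laminins and integrins. Itga3 and Itgb1 stand above all other chains, with means of 729 and 609 FPKM, and several fibrillar and collagen VI chains show 1 low LPSKD library.

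Relative to the libraries labelled LPS, those labelled LPSKD had more transcript of Itga1, a collagen receptor subunit, and of the basement membrane chain Col4a5. They had less of Itga2, another collagen receptor subunit, of the laminin receptor subunit Itga6, and of Col7a1, the chain of anchoring fibrils. These were the 5 of 40 tested chains (12.5%) past an adjusted p of 0.05 in limma on log2(FPKM + 0.1), 2 higher and 3 lower. Over all 11723 genes tested, 3.23% were called, 1.57% higher and 1.66% lower. In bulk RNA, fewer cells of a type and less RNA per cell cannot be told apart.

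By family, the calls fell on 2 of 19 collagens, 0 of 7 laminins and 3 of 14 integrins. At an unadjusted p under 0.05, 14 of 40 chains passed (35.0%, 8 higher and 6 lower), beside 17.6% of all genes tested. The groups did not overlap for 19 chains (47.5%, 9 higher and 10 lower in LPSKD), beside 23.8% of all genes tested. The median log2 fold change was -0.03 over the tested chains and -0.01 over all genes tested. Differences were small, with the 5 called chains between 21.9% below and 59.4% above the LPS mean. Over the 16 alternative settings tried, Itga1 was called in 16, Itga2 in 11, Col4a5 and Itga6 in 8 each and Col7a1 in 5. Without the variance trend, Itga1 alone passed, whereas limma's voom on the fragments behind the FPKM values, added after the data were examined, called 11 chains.

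**Figure D2:**
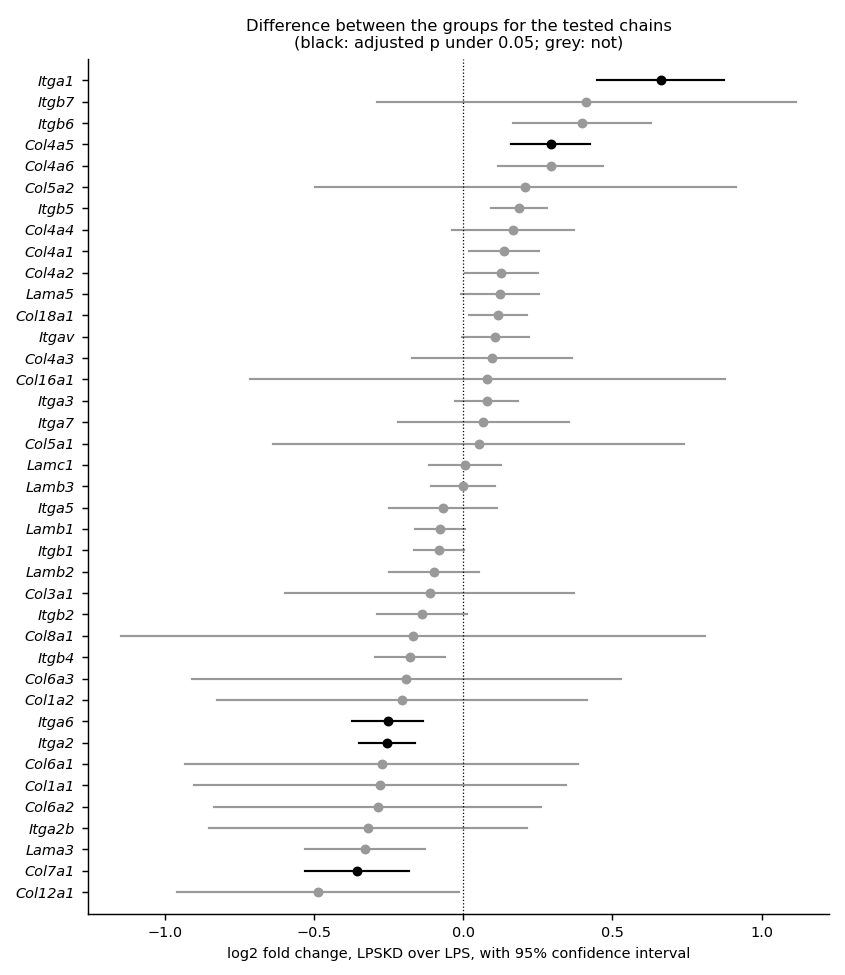
Log2 fold change (LPSKD over LPS) of 39 tested chains on log2(FPKM + 0.1), with 95% confidence intervals from limma. Black marks the 5 chains with an adjusted p under 0.05, from Itga1 at 0.66 to Col7a1 at -0.35, and grey the other 34.

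Of the collagen receptor subunits, both that were tested were called, in opposite directions. Itga1, whose product with beta1 favours collagen IV, was at 4.84, 4.91 and 4.61 FPKM in the LPS libraries and at 7.91, 7.42 and 7.54 FPKM in the LPSKD libraries. All 3 LPSKD values lay above all LPS values. The log2 fold change was 0.66 (SE 0.09, adjusted p = 0.0077), the largest rise among the tested chains. Itga2, whose product favours fibrillar collagen, was at 48.8, 47.6 and 48.3 FPKM and at 39.8, 41.1 and 40.4 FPKM. Here all LPSKD values lay below all LPS values, with a log2 fold change of -0.25 (SE 0.04, adjusted p = 0.0149).

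The ratio of Itga1 to Itga2 was 0.0992 ± 0.0039 (SD, n = 3) in the LPS libraries and 0.189 ± 0.0091 (SD, n = 3) in the LPSKD libraries (exact permutation p = 0.1, the smallest that 3 against 3 allows). Itga2 was still the more abundant subunit in all libraries. The other collagen receptor subunits, Itga10 and Itga11, did not pass the filter and averaged 0.353 and 0.0225 FPKM. Itga1 was called with each library left out in turn (adjusted p 0.0195 to 0.0462, and down to 0.000159 over all alternatives). Itga2 lost its call without LPS replicate 3 (adjusted p = 0.0787), without LPSKD replicate 1 (0.0761) and without LPSKD replicate 3 (0.0721). The call was also lost without the variance trend (0.0559) and with the replicate number as a block (0.057), within a range of 0.00108 to 0.0787 over all alternatives.

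Itga1 and Itga2 are neighbours on the minus strand of chromosome 13 (GRCm38), at chr13:114953096-115101964 and chr13:114833081-114932100, and their starts lie 169864 bases apart. Of the coding bases of Itga1, 8.34% are also exon of Gm49395, a gene on the same strand that the table lists at 0 in all 6 libraries. Their promoters are shown because the neighbours moved apart. Each runs from 250 bases before the RefSeq start to 30 bases after it (GRCm38.p6), and capitals mark GGGCGG, the GC box, on either strand.
Itga1, chr13:115101935-115102214, minus strand: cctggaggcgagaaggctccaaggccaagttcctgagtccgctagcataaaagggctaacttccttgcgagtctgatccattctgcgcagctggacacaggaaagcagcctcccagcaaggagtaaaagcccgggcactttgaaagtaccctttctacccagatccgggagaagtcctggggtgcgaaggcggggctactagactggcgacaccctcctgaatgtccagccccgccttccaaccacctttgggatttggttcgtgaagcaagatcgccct
Itga2, chr13:114932071-114932350, minus strand: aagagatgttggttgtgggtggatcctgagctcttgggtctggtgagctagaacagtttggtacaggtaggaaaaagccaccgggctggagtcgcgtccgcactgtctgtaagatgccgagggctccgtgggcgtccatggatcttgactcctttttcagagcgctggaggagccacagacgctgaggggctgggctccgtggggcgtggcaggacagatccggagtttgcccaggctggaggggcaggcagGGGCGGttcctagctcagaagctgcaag
A GC box began 2 bases after the start of Itga2, and these letters are not in the Itga1 window.

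Itga3 and Itgb1 made up most of the integrin transcript. Itga3, the subunit that binds laminins with beta1, took 82.1 to 84.0% of the summed alpha subunit FPKM per library, and Itgb1 took 78.5 to 80.5% of the summed beta subunit FPKM. Itga3 was at 751, 671 and 706 FPKM in the LPS libraries and at 744, 728 and 774 FPKM in the LPSKD libraries, and the groups overlapped. Its log2 fold change was 0.08 (95% interval -0.03 to 0.18, adjusted p = 0.429). Itgb1, the beta subunit shared by most matrix receptors, was at 604, 651 and 624 FPKM and at 586, 603 and 586 FPKM, which did not overlap but differed by a log2 fold change of only -0.08 (adjusted p = 0.293). Over the alternatives the limma adjusted p of Itgb1 ran from 0.052, after quantile normalization (log2 fold change -0.13), to 0.521. Neither of the most abundant subunits thus passed the test.

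Itga6, which pairs with Itgb4 in the hemidesmosomes of epithelia, fell from 23.9, 23.6 and 23.9 FPKM to 20.1, 19.5 and 20.2 FPKM. The groups were well separated, with a log2 fold change of -0.25 (SE 0.05, adjusted p = 0.0400). However, the call was lost with each of the 6 libraries left out in turn (adjusted p 0.0751 to 0.147). It was also lost without the variance trend (0.0564) and with the replicate number as a block (0.099), the lowest value being 0.00542 by voom. Its partner Itgb4 was at 78.0, 68.7 and 73.0 FPKM in the LPS libraries and at 64.0, 65.2 and 64.7 FPKM in the LPSKD libraries. The groups did not overlap either, but the log2 fold change of -0.18 (SE 0.05) did not pass (adjusted p = 0.12, and 0.027 by voom to 0.296 over the alternatives). The ratio of Itgb4 to Itga6 was 3.08 ± 0.174 in the LPS and 3.24 ± 0.083 in the LPSKD libraries (SD, n = 3, exact permutation p = 0.3). Of the coding bases of Itgb4, 9.57% overlap exons of a long noncoding RNA on the opposite strand, and whether strand was used in counting is not given in the sources used here. Itga7, another laminin receptor subunit, was at 5.56 to 7.14 FPKM over the libraries and overlapped between the groups.

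The subunits that bind RGD motifs, as in fibronectin and vitronectin, did not pass the test. Itgav, the alpha subunit with the most beta partners, was at 55.7, 53.4 and 58.4 FPKM and at 57.9, 61.8 and 60.7 FPKM, with overlap and a log2 fold change of 0.11 (95% interval -0.01 to 0.22, adjusted p = 0.305). Its partner Itgb5, a vitronectin receptor subunit, was at 63.0, 63.0 and 61.9 FPKM in the LPS libraries and at 69.7, 74.1 and 70.1 FPKM in the LPSKD libraries. The LPSKD values were all higher (log2 fold change 0.19, SE 0.04), and narrowly not called (adjusted p = 0.0514, and 0.0154 by voom to 0.186 over the alternatives).

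Itgb6, an epithelial partner of Itgav that activates latent TGF-beta, was at 4.85, 5.20 and 4.70 FPKM and at 6.15, 6.64 and 6.72 FPKM. All LPSKD values were higher, at a log2 fold change of 0.40 (SE 0.10), and the gene was not called (adjusted p = 0.0820, and 0.0327 by voom to 0.236 over the alternatives). Itgb8, another partner with a role in TGF-beta activation, had only 2 to 13 fragments per library and 0.0524, 0.140 and 0.0356 FPKM beside 0.209, 0.217 and 0.222 FPKM. The groups did not overlap, but Itgb8 was below the filter, and in the fit of all genes above 0 its adjusted p was 0.213. Itgb3, the partner of the classical vitronectin receptor, had 15 to 29 fragments per library, with overlap. Itga5, the fibronectin receptor subunit, stayed between 8.62 and 9.65 FPKM, and Itga2b, of platelets, between 0.943 and 1.61 FPKM.

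Integrins of leukocytes were represented mainly by a beta subunit. Itgb2, the subunit common to leukocyte integrins, was at 18.0, 19.2 and 18.1 FPKM in the LPS libraries and at 16.2, 16.3 and 17.8 FPKM in the LPSKD libraries (log2 fold change -0.14, adjusted p = 0.321). Its alpha partners Itgal, Itgam and Itgax averaged only 0.260, 0.0206 and 0.236 FPKM. Itga4, Itga9 and Itgae, found on lymphocytes and other cells, were likewise below the filter. Itgb7 was at 0.557 to 1.15 FPKM, with overlap. The 7 leukocyte markers summed to 36.4 to 44.5 FPKM in the LPS and 44.1 to 47.5 FPKM in the LPSKD libraries. Of the 4 tested, Csf1r alone was called (mean 24.4 FPKM in LPS and 33.3 FPKM in LPSKD, log2 fold change 0.45, adjusted p = 0.0208). The other 3 had lower means in LPSKD and were not called, with log2 fold changes of -0.30 for Cd68 (13.7 and 11.1 FPKM, without overlap, adjusted p = 0.197), -0.39 for Adgre1 and -0.18 for Ptprc, so that the higher sum came from Csf1r. Cd68, Adgre1 and Ptprc were each lowest in LPSKD replicate 1, at 9.64, 0.530 and 0.372 FPKM. In LPSKD replicates 2 and 3, Ptprc (1.03 and 1.055 FPKM) and Adgre1 (0.907 and 0.873 FPKM) lay within their LPS ranges. Cd68 (11.49 and 12.25 FPKM) remained below its LPS values there. The part of leukocyte RNA in the Itgb2 level was not tested.

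**Figure D3:**
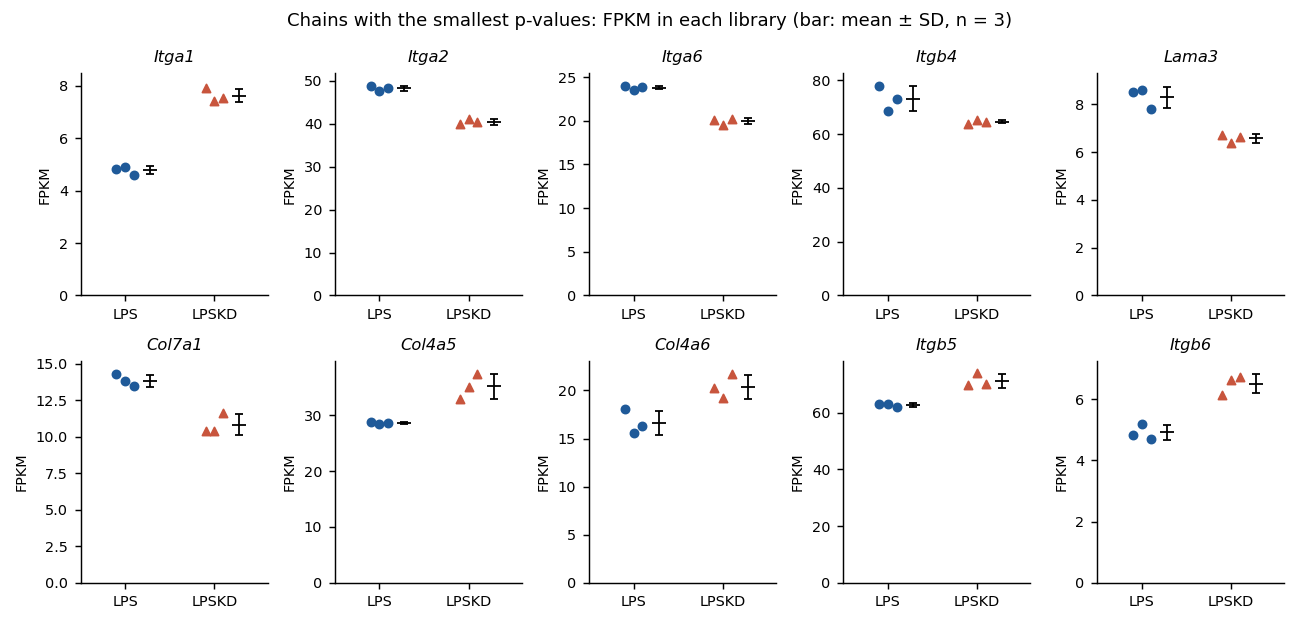
FPKM in each library for the 10 tested chains with the smallest p-values, on linear axes from 0, with circles for LPS, triangles for LPSKD and bars for the mean ± SD (n = 3). The groups do not overlap in any of the 10 panels, with Itga1 at 4.61 to 4.91 FPKM in LPS and 7.42 to 7.91 FPKM in LPSKD.

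Among ligands of these receptors, 0 of 7 tested laminin chains were called by limma, and 1, Lama3, passed an unadjusted p under 0.05 and was called by voom. The alpha and beta chains of the trimer typical of mature tubular basement membrane were the most abundant. Lama5, its alpha chain, was at 244, 208 and 220.2 FPKM in the LPS libraries and at 245, 237 and 248 FPKM in the LPSKD libraries, with overlap (log2 fold change 0.12, 95% interval -0.01 to 0.25, adjusted p = 0.310). Lamb1, its beta chain in many tissues, was at 262, 247 and 251 FPKM and at 234, 245 and 240.4 FPKM. The groups did not overlap, at a log2 fold change of -0.08 (SE 0.04, adjusted p = 0.316). Lamc1, the gamma chain of most laminins, was at 22.9 to 24.2 FPKM over the 6 libraries (log2 fold change 0.01, 95% interval -0.12 to 0.13).

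Alpha and beta chains of laminin were unequal in amount. Alpha chains summed to 233 ± 18.6 and 250.3 ± 5.96 FPKM in the LPS and LPSKD libraries, and beta chains to 349 ± 13.6 and 333 ± 3.97 FPKM (SD, n = 3). Lama5 took 95.9 to 97.2% of the alpha chain FPKM, and Lamb1 took 71.1 to 73.2% of the beta chain FPKM.

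Lama3 and Lamb3 belong to the laminin that anchors epithelia at hemidesmosomes. Lama3 was at 8.52, 8.59 and 7.80 FPKM in the LPS libraries and at 6.73, 6.38 and 6.65 FPKM in the LPSKD libraries. All LPSKD values were lower, with a log2 fold change of -0.33 (SE 0.09), but the gene was not called (adjusted p = 0.0978, and 0.00201 by voom to 0.228 over the alternatives). Lamb3 overlapped between the groups. It was at 58.4 to 63.3 FPKM (95% interval of the log2 fold change -0.11 to 0.11). The ratio of Lama3 to Lamb3 was 0.138 ± 0.0079 and 0.110 ± 0.0037 (SD, n = 3), without overlap (exact permutation p = 0.1). Lamb2, another beta chain, was at 31.6 to 37.9 FPKM with overlap. Lama1, Lama2, Lama4 and Lamc3 did not pass the filter.

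All 6 chains of collagen IV were expressed, and 1 of them was called. Col4a5, a chain of the minor networks whose loss causes hereditary nephritis, rose from 28.8, 28.4 and 28.7 FPKM to 32.9, 35.1 and 37.5 FPKM. All LPSKD values were higher and also more spread than the LPS values (log2 fold change 0.29, SE 0.06, adjusted p = 0.0352). The call was lost on leaving out LPS replicate 1, 2 or 3 (adjusted p = 0.0602, 0.0796 and 0.119) or LPSKD replicate 2 or 3 (0.109 and 0.121), without the variance trend (0.0962) and with no filter (0.0539), among other settings, with 0.00204 by voom as the lowest value. Col4a6, its network partner, was at 18.0, 15.6 and 16.3 FPKM and at 20.2, 19.2 and 21.7 FPKM. Its log2 fold change was also 0.29 (SE 0.08), without overlap and without a call (adjusted p = 0.0936, and 0.0115 by voom to 0.267 over the alternatives). The ratio of Col4a6 to Col4a5 was 0.581 ± 0.0404 and 0.580 ± 0.0340 in the LPS and LPSKD libraries (SD, n = 3, exact permutation p = 1.0).

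Col4a1 and Col4a2, which together form the ubiquitous collagen IV trimer, were not called. Col4a1 was at 46.1, 41.7 and 44.6 FPKM in the LPS libraries and at 49.2, 46.9 and 49.5 FPKM in the LPSKD libraries (log2 fold change 0.14, adjusted p = 0.224). Col4a2 was at 42.1, 41.5 and 42.9 FPKM and at 45.3, 43.8 and 49.2 FPKM (log2 fold change 0.13, adjusted p = 0.261). In both genes all LPSKD values lay above all LPS values. Col4a3 and Col4a4, chains of the mature glomerular and tubular network, were at 4.17 to 5.02 FPKM and 6.19 to 7.20 FPKM.

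The log2 fold change was above 0 in 6 of 6 collagen IV chains, from 0.10 to 0.29, as also after quantile normalization (0.13 to 0.31) and median centring (0.10 to 0.30). These scalings use the same 6 libraries, and Col4a5 alone was called in the main fit. The median over all genes tested was -0.01 in the values as deposited. Summed collagen IV FPKM was 146, 138 and 143 in the LPS libraries and 159, 157 and 169.9 in the LPSKD libraries. These sums did not overlap (exact permutation p = 0.1, the smallest possible). Collagen IV took 40.5 ± 0.151% of all collagen FPKM in the LPS and 43.0 ± 0.587% in the LPSKD libraries (SD, n = 3).

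Collagen IV genes lie in head-to-head pairs. The starts of Col4a5 and Col4a6 on the X chromosome are 1343 bases apart, and those of Col4a1 and Col4a2 on chromosome 8 are 21 bases apart. The windows of Col4a5 and Col4a6 are shown because this pair had nearly the same difference between the groups, with the same limits and build as above and GC boxes in capitals (CCGCCC where the box is on the other strand).
Col4a5, chrX:141475169-141475448, plus strand: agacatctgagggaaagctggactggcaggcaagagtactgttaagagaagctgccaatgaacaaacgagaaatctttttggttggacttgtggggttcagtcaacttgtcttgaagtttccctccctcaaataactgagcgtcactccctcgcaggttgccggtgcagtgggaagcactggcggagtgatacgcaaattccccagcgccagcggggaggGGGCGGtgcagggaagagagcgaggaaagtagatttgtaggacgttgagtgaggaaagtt
Col4a6, chrX:141474047-141474326, minus strand: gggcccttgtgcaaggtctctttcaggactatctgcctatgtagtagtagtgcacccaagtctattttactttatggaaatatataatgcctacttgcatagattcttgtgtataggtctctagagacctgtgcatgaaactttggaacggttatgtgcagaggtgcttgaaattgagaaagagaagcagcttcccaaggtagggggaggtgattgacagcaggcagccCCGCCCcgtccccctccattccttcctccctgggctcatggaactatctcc
A GC box began 30 bases before the start of Col4a5 and 21 bases before that of Col4a6. In windows of 300 bases, from 250 before to 50 after a RefSeq start, GGGCGG on either strand was in 21 of 34 windows of 29 tested chains (61.8%) and in 35.7% of all 32851 windows, whose median GC content was 59.3% and 52.7%. TTCNNNGAA, the palindrome that STAT factors bind, was in 1 of the 34 windows, that of Lamb2, and in 8.30% of all windows. Matches of these 2 motifs cannot overlap each other, and a match describes the letters of the window only.

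Of the other collagens of basement membranes, 2 were tested and 1 was called. Col7a1, on chromosome 9 (chr9:108953586-108984875, GRCm38), was at 14.3, 13.8 and 13.5 FPKM in the LPS libraries and at 10.4, 10.4 and 11.7 FPKM in the LPSKD libraries. All LPSKD values were lower, with a log2 fold change of -0.35 (SE 0.08, adjusted p = 0.0470). The call was lost with each of the 6 libraries left out in turn (adjusted p 0.0674 to 0.171), without the variance trend (0.0716), after quantile normalization (0.0541), and with the filter at 0.1 (0.0583) or none (0.0800), among other settings, and the lowest value was 0.000879 by voom. Col18a1, the source of endostatin and the most abundant collagen, was at 158, 151 and 161 FPKM and at 174, 162 and 174 FPKM. Its groups just failed to overlap, and the log2 fold change of 0.12 (SE 0.04) was not called (adjusted p = 0.210). Col15a1 and Col17a1, the latter a hemidesmosome component, were below the filter.

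The collagens made mainly by stromal cells were at low levels, and 0 of 8 tested were called by limma, 0 at an unadjusted p under 0.05 and 0 by voom. They were the fibrillar chains Col1a1, Col1a2, Col3a1, Col5a1 and Col5a2 and the collagen VI chains Col6a1, Col6a2 and Col6a3. Col1a1 was at 6.46, 5.59 and 5.54 FPKM in the LPS libraries and at 3.02, 4.99 and 7.34 FPKM in the LPSKD libraries. Col3a1 was at 7.54, 7.12 and 6.28 FPKM and at 4.46, 7.01 and 8.49 FPKM. Both had their lowest and their highest value within the LPSKD group.

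LPSKD replicate 1 was lowest for 8 of 8 of these chains, at 0.460 to 0.712 of the mean of the other 5 libraries. It was also lowest for 5 of 6 fibroblast markers, Pdgfra being the exception. The summed fibroblast markers were 15.6 FPKM in that library and 23.3 to 29.8 FPKM in the others, and 0 of 6 were called by limma, 0 at an unadjusted p under 0.05 and 0 by voom. Over all 6 libraries the median log2 fold change of the 8 chains was -0.20. Without LPSKD replicate 1, an omission looked at after the data were examined, it was 0.13, with 7 of 8 above 0 and 0 called, so no direction can be given for these chains. The part of stromal cells in these levels was not tested.

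**Figure D4:**
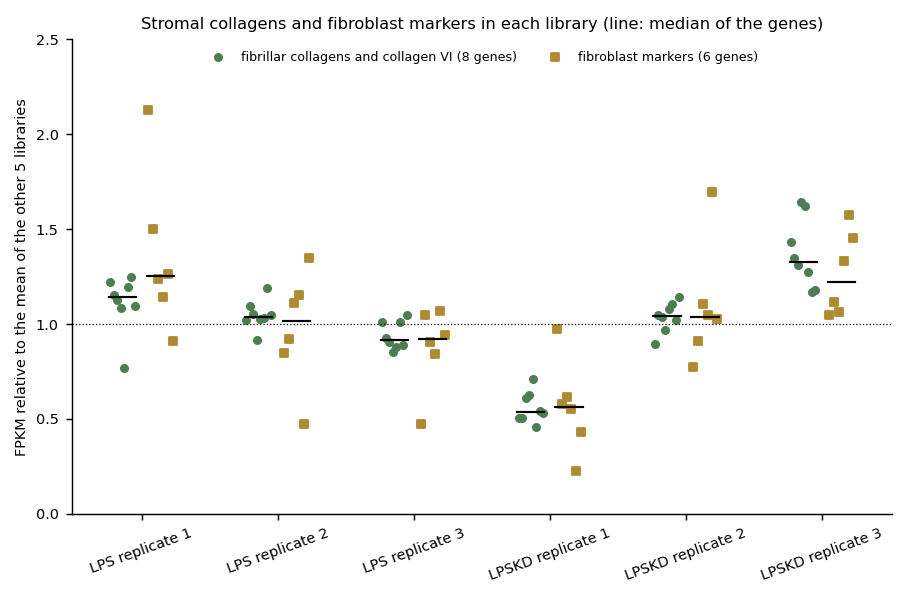
FPKM of the 8 tested fibrillar and collagen VI chains (circles) and of 6 fibroblast markers (squares) in each library, each relative to that gene's mean in the other 5 libraries, with lines at the medians. LPSKD replicate 1 lies lowest, with the 8 collagens at 0.460 to 0.712.

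Of the remaining tested collagens, Col12a1, which decorates fibrils, was at 2.14, 2.21 and 1.97 FPKM and at 1.24, 1.39 and 1.84 FPKM. The groups did not overlap, but the log2 fold change of -0.49 (SE 0.21) was not called (adjusted p = 0.271, and 0.0299 by voom to 0.516 over the alternatives). Col16a1 and Col8a1 were at 0.504 to 0.916 FPKM and 0.305 to 0.792 FPKM.

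The 41 untested chains had means of at most 0.372 FPKM. Col9a1 and Col10a1, chains of cartilage, were listed at 0 in all libraries, where a count of 0 allows an expected count of up to 3 fragments per library, for counting error only. A further 8 chains had at most 3 counted fragments in any library, 29 had more (at most 64), and for 2 the fragments could not be worked out. Among them were the fibrillar chains Col2a1, Col5a3, Col11a1, Col11a2, Col24a1 and Col27a1, and Col6a4, Col6a5 and Col6a6. Also untested were Col9a2, Col9a3, Col14a1, Col19a1, Col20a1, Col22a1, Col8a2, Col13a1, Col23a1, Col25a1, Col26a1 and Col28a1, and the integrins Itga8 and Itgb2l.

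The genes that process, accompany or bind these chains were taken as 7 lists of 162 genes, of which 123 were tested and 15 called (8 higher and 7 lower), beside 3.23% of all genes tested (1.57% higher and 1.66% lower). The lists were chosen with earlier results of these data known, so their shares describe these genes only and are no test of the lists. Collagen processing had 3 of 19 called. Pcolce, an enhancer of procollagen cleavage, rose from 53.5, 54.9 and 55.4 FPKM to 67.0, 66.3 and 65.6 FPKM (log2 fold change 0.28, adjusted p = 0.00699). P4ha1, a prolyl hydroxylase subunit, rose by 0.34 on the log2 scale (adjusted p = 0.0156), and the procollagen protease Bmp1 fell by 0.32 (adjusted p = 0.0294). Partners of the basement membrane had 0 of 13 called by limma, with 6 at an unadjusted p under 0.05 (beside 17.6% of all genes tested) and 2 by voom, and TGF-beta signalling had 0 of 15, with 2 at an unadjusted p under 0.05 and 1 by voom.

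Adhesive ligands had 5 of 14 called, 2 higher and 3 lower, beside 3.23% of all genes tested. Fn1, fibronectin, was at 795, 728 and 746 FPKM in the LPS libraries and at 548, 543 and 564 FPKM in the LPSKD libraries (log2 fold change -0.45, adjusted p = 0.000786). Spp1, osteopontin, an RGD ligand, was at 3552, 3661 and 3566 FPKM and at 2808, 2868 and 2825 FPKM (log2 fold change -0.34, adjusted p = 0.000988). Cyr61, a matrix-associated ligand of integrins, was at 244, 229 and 237 FPKM and at 353, 339.5 and 342 FPKM (log2 fold change 0.54, adjusted p = 0.000127). Fn1 and Spp1 fell while Cyr61 rose, each without overlap.

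Matrix degradation had 5 of 20 called, 4 higher and 1 lower, beside 3.23% of all genes tested. Plat, a plasminogen activator, rose by 0.43 on the log2 scale (adjusted p = 0.000531), while Timp1, an inhibitor of metalloproteinases, fell by 0.23 (adjusted p = 0.0288). The adhesion complex had 1 of 33 called, a share near that of all genes, namely Lims2, a partner of integrin-linked kinase (log2 fold change -0.69, adjusted p = 0.0252), and the other matrix receptors 1 of 9, the hyaluronan receptor Cd44 (-0.25, adjusted p = 0.0403). Cyr61, Fn1, Spp1, Plat and Pcolce were called with each library left out in turn. P4ha1 lost its call without LPS replicate 3, LPSKD replicate 1 or LPSKD replicate 2 (highest adjusted p 0.0787), Bmp1 without these or LPS replicate 1 (0.121), Lims2 without any of the LPSKD replicates (0.0948), Timp1 without any replicate but LPS replicate 1 (0.127), and Cd44 without any of the 6 (0.134).

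Of the genes matching by name only, 4 were tested and 0 called by limma, with 0 at an unadjusted p under 0.05 and 0 by voom. Col4a3bp, a ceramide transfer protein, was at 35.5, 36.3 and 36.3 FPKM and at 33.9, 34.0 and 33.5 FPKM (adjusted p = 0.331). Itgb1bp1, Itgb3bp and Itgb1bp2 overlapped between the groups, and Itgbl1 was below the filter.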

How the data were processed

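RNA-seq of 6 mTEC libraries, 3 labelled LPS and 3 labelled LPSKD, was analysed, with groups and replicate numbers from the sample titles. The authors deposited FPKM values, 1 per gene and library, without pooling. The submitters' processing notes name HISAT2 2.0, StringTie 1.3.0 and Bowtie 0.12.2, and the builds mm8 and GRCh38.p13, with no role given. Of the 22442 gene identifiers, 22399 matched a GENCODE M21 symbol on GRCm38, and 5605 genes were at 0 in all libraries. For 97.8% of the other 16837 genes, FPKM times coding length (up to 10 bases more) and library total gave whole fragments within 0.01. A further 332 were recovered at another length and 45 were not.

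Genes averaging 0.5 FPKM or more were fitted on log2(FPKM + 0.1) with limma 3.58.1 in R 4.3.3 (lmFit, eBayes with trend), without covariates, with Benjamini-Hochberg adjustment over all genes tested. The script was tested on simulated data. The pseudocount makes fold changes of low genes too small. Exact permutation tests were two-sided. Other work used Python 3.11.15, numpy 2.4.6, pandas 2.3.3 and matplotlib 3.10.9.

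Members, gene lists, markers and tests were chosen with earlier results of these data known. Named genes are the called chains, the 8 chains next by p, the 4 most abundant collagens and laminins and 6 integrins, their partner chains, and up to 3 called genes per list. Some genes that these rules cover are counted but not reported here by name or shown. Further chains were named after their values were seen, to account for each class. Within each group, replicates differed beyond counting error (chi-square per gene 3.99 to 10.1), so each counted as 1 sample. Counting error is the only error that fragment numbers describe. Same-numbered libraries did not deviate together (correlations -0.043 to -0.004 across genes), so the numbers were not used as pairs. Promoter windows are from RefSeq (GRCm38.p6). Tried as alternatives were a pseudocount of 1 or 0.01, a filter at 1 or 0.1 mean FPKM or no filter, quantile normalization, median centring, eBayes without trend, a replicate block, the omission of each library, and voom on the recovered fragments.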

Additional observations from a re-analysis of the deposited data

How the results depend on the processing

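Main counts were 5 chains called (2 higher, 3 lower), 15 partner genes and 0 stromal collagens. Pseudocounts, a filter at a mean FPKM of 1 or 0.1, quantile normalization and median centring left 4 to 6 chains. With no filter, 3 chains were called, 1 higher and 2 lower. Without the variance trend, 1 chain was called, 1 higher and 0 lower, with 7 partner genes. Leaving out 1 library, which also leaves fewer samples, gave 1 to 2 chains, 1 to 2 higher and 0 to 1 lower, and 7 to 13 partner genes. Voom gave 11 chains, 5 higher and 6 lower, and 22 partner genes. Beyond these constructions the cause of the differences was not tested. Across all alternatives 0 stromal collagens were called. The Stat3 log2 fold change lay between -0.06 and 0.04 and was not called.

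The replicate numbers were not shown to pair the samples. With the replicate number as a block, which costs degrees of freedom, 1 chain (Itga1) was called, 1 higher and 0 lower, and 10 partner genes.

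Low chains are limited by depth, since the least covered tested chain had 17 fragments in a library.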

Other observations

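Col20a1, a low collagen picked out after its values were seen, was at 0.334, 0.629 and 0.400 FPKM in the LPS libraries and at 0.0587, 0.203 and 0.144 FPKM in the LPSKD libraries, from 6 to 64 fragments per library. The groups did not overlap, but in the limma fit of all genes above 0 the log2 fold change of -1.25 was not called (adjusted p = 0.167).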
